A study of Rattus norvegicus with 2 samples.

Results

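The genes examined here were those of glycolysis, the route by which glucose is broken down to pyruvate and lactate, and of the cellular response to low oxygen. They were chosen as 35 gene symbols, of 17337 genes in the table of the acetabular cartilage of Wistar rats. The control rats were raised without restraint. The DA-DDH rats, the model of developmental dysplasia of the hip with a dislocated joint, were swaddled with hips adducted and extended and knees extended for 10 days after birth and then moved freely. Cartilage was taken from both groups at 3 weeks of age. Each group gave 1 library, a pool of 4 rats in the control and of 5 in DA-DDH, so replicates are lacking for every value and no test between conditions was possible.

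The libraries held 796723 reads (control) and 833869 reads (DA-DDH), recovered from the deposited signal, in which every value was a whole multiple of the value of 1 read. The tissue label was checked against 13 hyaline cartilage markers with a row in the table, of 16 listed. They held 34.6% of the control reads and 14.4% of the DA-DDH reads, and each of the 13 was lower in the DA-DDH library. *Col2a1* alone held 233705 of the 275811 control reads and 95275 of the 120339 DA-DDH reads of this list. Ratios are therefore given after TMM scaling, which sets aside the most extreme genes, as log2 of DA-DDH over control with 0.5 reads added to each value. Library totals alone as the scale would raise all log2 ratios by 0.43. Pairs of reads name the control first, and the value in parentheses after them is the log2 ratio. Each ratio has a 95% exact conditional binomial interval, which covers counting error only, and reads of PCR copies are not independent molecules.

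Glycolysis runs from the uptake of glucose through hexokinase and phosphofructokinase to pyruvate kinase, and lactate dehydrogenase then turns pyruvate into lactate, which leaves the cell through monocarboxylate transporters. Cartilage has few or no vessels, and its chondrocytes live at low oxygen and draw much of their energy from glycolysis. The factors HIF-1α and HIF-2α, encoded by *Hif1a* and *Epas1*, pair with the product of *Arnt* and bind promoters with a short core sequence. Prolyl hydroxylases use oxygen to mark the HIF-α proteins for destruction, so HIF activity is set mainly at the protein level, which RNA reads do not show.

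Of the 35 genes, 34 had a row in the table, 32 had at least 1 read and 23 had a mean of at least 30 reads over the libraries, the floor used for counts and medians. *Egln1*, a prolyl hydroxylase gene, is not among the symbols matched, so it has no read values here and enters only the promoter windows. None of the 23 genes was over 2-fold higher or lower, which 5.65% of the 3735 genes at the floor were. Their log2 ratios ran from -0.70 for *Pfkfb3* to 0.37 for *Epas1*, with a median of -0.18, beside a median of -0.02 over all genes at the floor. The genes thus lay close to each other and slightly to the low side of the rest. Of the 23, 20 were below 0, which 51.7% of all genes at the floor were. The counting interval lay wholly below 0 for 7 of the 23 (30.4%), beside 15.5% of all genes, and wholly above 0 for 1 (4.35%), beside 12.7%.

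These counts depend on the scaling, whereas the position among other genes does not. With total-count scaling, 16 of the 20 genes below 0 moved above it, the intervals of 0 genes lay below 0 and those of 5 above it, beside 3.83% and 40.9% of all genes, and the median of the 23 genes was 0.24 beside 0.41 over all genes. In both scalings the median of the 23 genes was 0.16 lower on the log2 scale than that of all genes. Of the 23, 20 lay below the median of all genes and 8 below the lower quartile, 14 lay between the quartiles, and 1, *Epas1*, lay above the upper quartile. By definition, 50% of all genes lie below their median, 50% between the quartiles and 25% beyond each quartile. The members lay between percentile 7.42 (*Pfkfb3*) and 80.2 (*Epas1*) of all genes at the floor. On the TMM scale their quartiles were -0.37 and -0.07, a narrower spread than -0.32 and 0.28 over all genes. The sets are not alike in depth, since 616 of the 3735 genes had under 30 reads in a library and none of the 23 did.

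**Figure D1:**
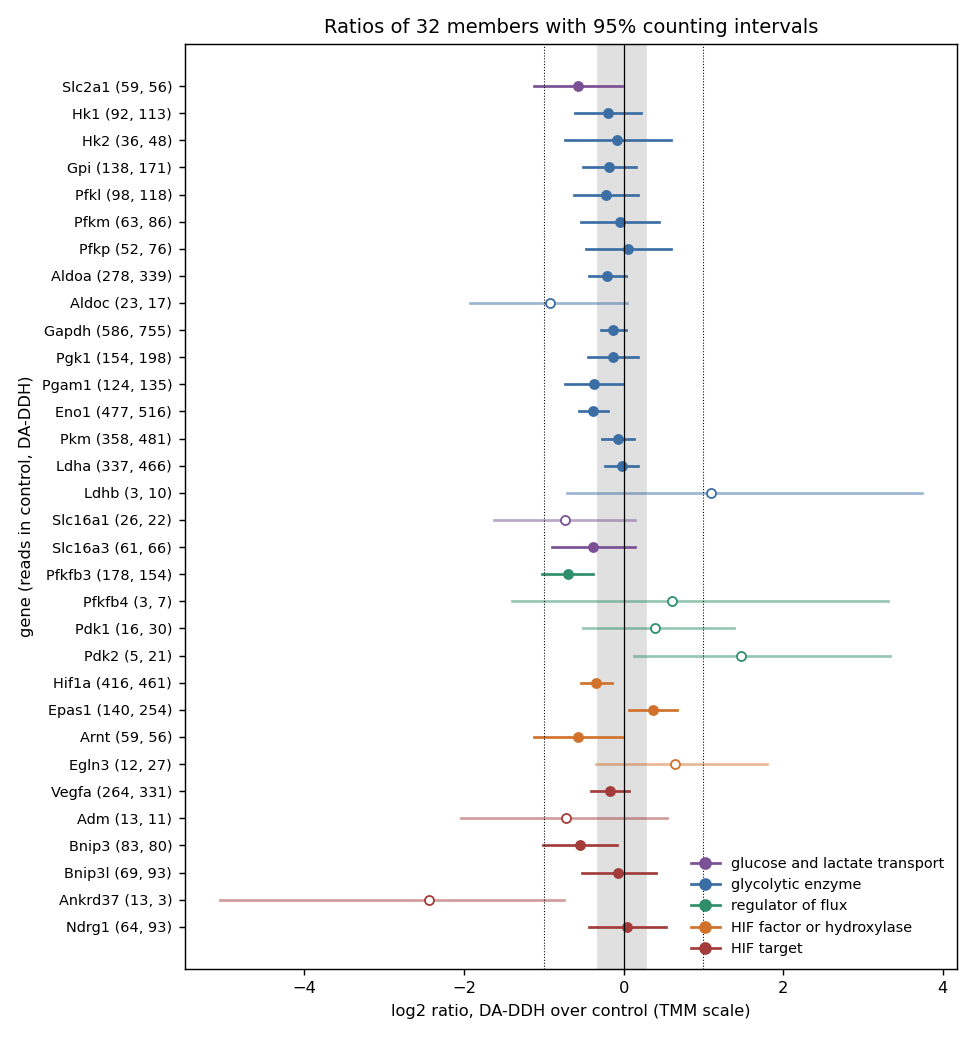
Log2 ratio of DA-DDH over control (x axis, TMM scale) for the 32 genes with a read, with the reads in control and DA-DDH beside each name. Points are ratios, open where the mean is under 30 reads, lines are 95% counting intervals, the grey band holds the middle of all genes at the floor (-0.32 to 0.28, quartiles) and dotted lines mark 2-fold. All filled points lie between the dotted lines.

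**Figure D2:**
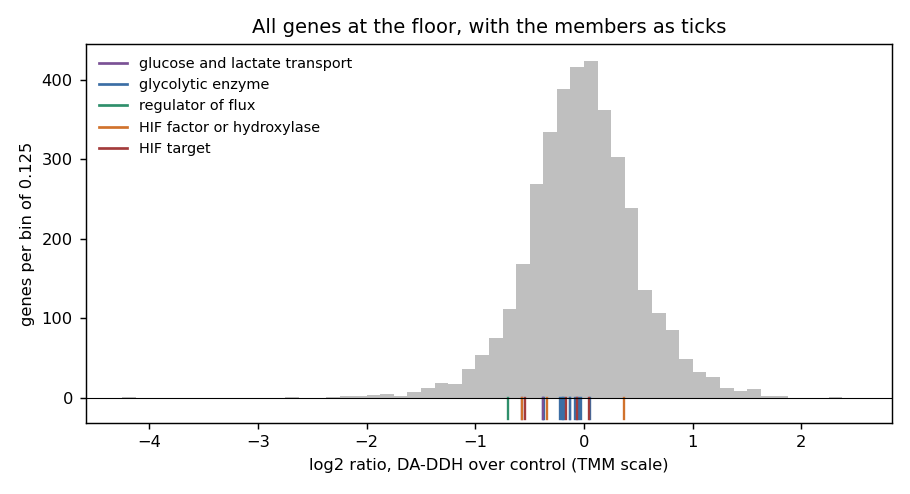
Number of genes (y axis) by log2 ratio of DA-DDH over control (x axis) for the 3735 genes at the floor, with the 23 glycolysis and hypoxia genes as coloured ticks below the axis. The ticks crowd just left of 0, from -0.70 to 0.37.

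Glucose enters chondrocytes mainly through facilitative transporters. *Slc2a1* (rn6 chr5:138154680-138182897, plus strand) encodes the transporter GLUT1. It had 59 control reads and 56 DA-DDH reads, which gave -0.57 on the log2 scale (interval -1.12 to -0.01). It was thus lower in the DA-DDH library on the TMM scale, with an interval that ends just short of 0. With total-count scaling its ratio was -0.14. *Slc2a3*, which encodes GLUT3, had 0 reads in both libraries. Its 10 exons are annotated at 2 places in rn6, at chr4:155552120-155563167 and chr4:155752447-155763500. *Tpi1*, which encodes triosephosphate isomerase, also had 0 reads in both, and its 7 exons are annotated both at chr4:157328375-157331905 and at chr9:20213752-20217282. A cell that runs glycolysis needs this enzyme, so the 0 is not a measure of absence. In the whole table, 283 genes had an exon set that appears at 2 places, and 244 of them (86.2%) had 0 reads in both libraries, beside 29.4% of the 17054 other genes. The sources used here do not say how reads that fit more than 1 place were counted, and neither gene was used as a measurement.

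The enzymes of the pathway stood at closely similar levels in the libraries. Of 13 enzyme genes at the floor, 12 were below 0, beside 51.7% of all genes, with a median log2 ratio of -0.13 and a range from -0.38 (*Eno1*) to 0.05 (*Pfkp*). With total-count scaling all 13 were above 0, from 0.048 (*Eno1*) to 0.48 (*Pfkp*). The interval on the TMM scale spanned 0 for 11 of them. The 16 enzyme genes together, *Tpi1* at 0 included, had 2819 control reads and 3529 DA-DDH reads (log2 ratio -0.17, interval -0.24 to -0.10). As a share of all reads they were higher in the DA-DDH library, at 0.423% (95% exact binomial interval 0.409 to 0.437) beside 0.354% (0.341 to 0.367) in the control. As a share of the reads outside the hyaline cartilage markers they were lower, at 0.495% beside 0.541%. The direction for the summed enzymes thus turned with the choice of what they are set against.

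Step by step, hexokinase, which traps glucose in the cell, was represented mainly by *Hk1*, with 92 control reads and 113 DA-DDH reads (-0.20, interval -0.61 to 0.22). *Hk2*, the form that HIF-1 is known to induce, had 36 and 48 reads (-0.08, interval -0.73 to 0.59). *Gpi*, which turns glucose 6-phosphate into fructose 6-phosphate, had 138 and 171 reads (-0.18, interval -0.51 to 0.15). None of these upper steps stood apart from 0. Phosphofructokinase, the main point of control, was shared by its liver-type, muscle-type and platelet-type genes. *Pfkl* had 98 and 118 reads (-0.23, interval -0.62 to 0.18), *Pfkm* 63 and 86 (-0.05, interval -0.53 to 0.45) and *Pfkp* 52 and 76 (0.05, interval -0.47 to 0.59). *Pfkl* held 46.0% of their reads in the control (95% exact binomial interval 39.2 to 53.0) and 42.1% in the DA-DDH library (36.3 to 48.2), which overlap.

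Aldolase splits the sugar into triose phosphates. *Aldoa* had 278 and 339 reads (-0.21, interval -0.44 to 0.03), and its paralog *Aldoc* had 23 and 17 (-0.92, interval -1.92 to 0.04), under the floor. *Aldoa* held 92.4% of the control and 95.2% of the DA-DDH aldolase reads, with overlapping intervals. *Gapdh* encodes the dehydrogenase that is widely used as a reference in qPCR and served so in the study. The gene (rn6 chr4:157676396-157680268, minus strand) had 586 and 755 reads (-0.13, interval -0.28 to 0.03). Among the 23 genes at the floor, 8 had a higher ratio than *Gapdh* and 14 a lower one. *Pgk1*, which encodes the first enzyme of the pathway to make ATP, was at the same place, with 154 and 198 reads (-0.13, interval -0.44 to 0.18).

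The interval lay below 0 for *Eno1* and *Pgam1*, 2 of the 13 enzymes, beside 15.5% of all genes at the floor, which is about the same share. *Eno1* (rn6 chr5:167288223-167299610, plus strand) encodes α-enolase. It had 477 control reads and 516 DA-DDH reads (-0.38, interval -0.56 to -0.20). *Pgam1*, which encodes phosphoglycerate mutase, had 124 and 135 reads (-0.37, interval -0.73 to -0.01). Both were lower on the TMM scale, and with total-count scaling their ratios were 0.048 and 0.056. *Pkm*, the pyruvate kinase gene, had 358 and 481 reads (-0.07, interval -0.27 to 0.14), and *Ldha*, the main lactate dehydrogenase gene of glycolytic cells, had 337 and 466 (-0.02, interval -0.23 to 0.18). The final steps therefore lay nearer to the middle of all genes than *Eno1* did, at percentile 45.9 (*Pkm*) and 49.7 (*Ldha*), beside 21 for *Eno1*. *Ldhb*, the form that prevails in oxidative tissue, had 3 and 10 reads (1.09, interval -0.71 to 3.74). *Ldha* held 99.1% of the reads of both genes in the control (interval 97.4 to 99.8) and 97.9% in the DA-DDH library (96.2 to 99.0).

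Levels between genes were compared per kb of annotated exon, as CPM per kb on the TMM scale. *Gapdh* stood highest of the enzymes in both libraries, at 670 CPM per kb in the control (95% exact Poisson interval 617 to 726) and 614 in the DA-DDH library (571 to 659). In the control, *Eno1* (367, interval 335 to 401), *Ldha* (307, interval 275 to 341), *Pkm* (264, interval 238 to 293) and *Aldoa* (251, interval 223 to 283) followed, and each overlapped its neighbour in this order. In the DA-DDH library *Ldha* came before *Eno1*, at 302 (interval 275 to 330) and 282 (interval 258 to 308), again with overlapping intervals. The hexokinase genes were far lower, with *Hk1* at 41.1 and 35.9 CPM per kb in control and DA-DDH and *Hk2* at 14.4 and 13.7, while *Gpi* (99.7 and 87.8) stood near *Pgam1* (104 and 80.2). *Ldhb* was lowest among the enzymes with a read, at 3.59 and 8.50. Processed pseudogene copies of several of these genes, such as *Gapdh*, are known in rodent genomes, and reads shared with them cannot be told apart here, so the levels are uncertain for that reason too.

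**Figure D3:**
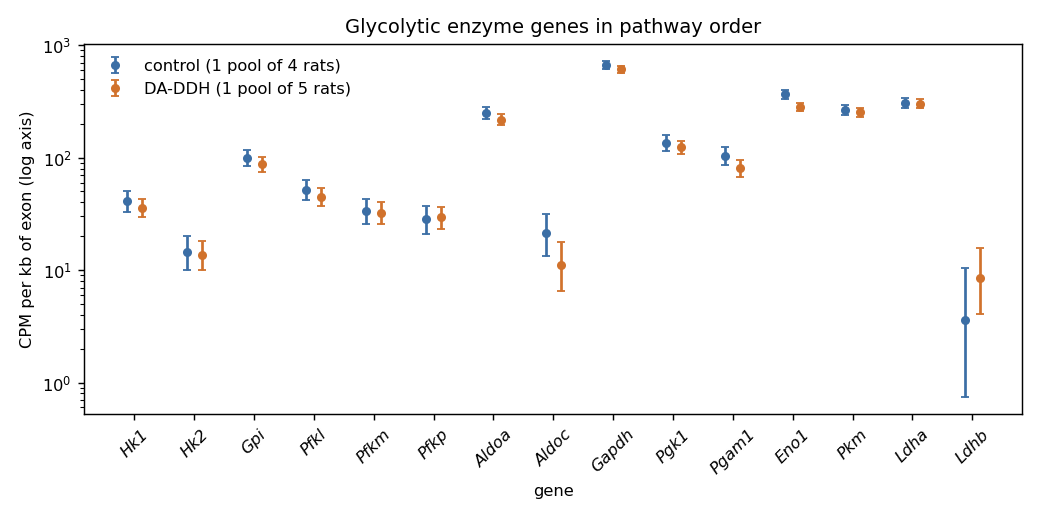
Level of 15 glycolytic enzyme genes in pathway order (x axis), as CPM per kb of annotated exon on the TMM scale (log y axis), in the control and the DA-DDH library. Points are the value of each library and bars are 95% exact Poisson intervals of its reads, with no replicate. The levels of each gene in the 2 libraries sit beside each other, and *Gapdh* is highest at 670 and 614.

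Lactate leaves the cell through MCT4, encoded by *Slc16a3*, and moves in or out through MCT1, encoded by *Slc16a1*. *Slc16a3* had 61 control reads and 66 DA-DDH reads (-0.38, interval -0.90 to 0.15). *Slc16a1* had 26 and 22 reads, under the floor (-0.73, interval -1.62 to 0.14). Neither gene stood apart from 0 by itself, while their summed reads, 87 and 88, had a log2 ratio of -0.48 (interval -0.92 to -0.03). With total-count scaling this sum was at -0.05. *Bsg* encodes basigin, the partner that carries both transporters to the cell surface, and was singled out after its values were seen. It had 460 and 467 reads and a log2 ratio of -0.47 (interval -0.66 to -0.28). Library totals as the scale would raise that ratio by 0.43, to near 0, and its interval would then span 0.

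*Pfkfb3* was the lowest of the 23 genes at the floor. It encodes the enzyme that makes fructose 2,6-bisphosphate, the strongest activator of phosphofructokinase, and is known as a gene induced by hypoxia. The gene (rn6 chr17:70684134-70711224, plus strand) had 178 control reads and 154 DA-DDH reads. Its ratio was -0.70 (interval -1.02 to -0.38), which is 1.62-fold lower, and with total-count scaling it was at -0.27. It was the only one of the 23 genes past 1.5-fold on the TMM scale, a looser threshold tried as an alternative. Its paralog *Pfkfb4* had 3 and 7 reads (0.61, interval -1.40 to 3.31), too few to place. *Pfkfb3* held 98.3% of the control and 95.7% of the DA-DDH reads of both, with overlapping intervals.

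Pyruvate dehydrogenase kinases inhibit the enzyme complex that turns pyruvate into acetyl-CoA in the mitochondrion, and *Pdk1* is a known target of HIF-1. *Pdk1* had 16 and 30 reads (log2 ratio 0.39, interval -0.51 to 1.39) and *Pdk2* had 5 and 21 (1.47, interval 0.13 to 3.34). Both were under the floor and above 0, and their summed reads, 21 and 51, gave 0.77 (interval 0.03 to 1.60). Of the 9 genes with a read under the floor, 3 were over 2-fold, *Ldhb* and *Pdk2* higher and *Ankrd37* lower. Of the 5176 genes in the table with a mean of 5 to under 30 reads, 21.9% were over 2-fold. The interval lay wholly off 0 for 2 of the 9 genes, *Pdk2* and *Ankrd37*, beside 11.7% of such genes. *Pdk3*, a related kinase gene, had 26 and 50 reads (0.44, interval -0.26 to 1.19), and *Pdk4* had 5 and 2.

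The genes of the HIF-α subunits differed in direction. *Hif1a* (rn6 chr6:96811185-96856050, plus strand) had 416 control reads and 461 DA-DDH reads (-0.34, interval -0.54 to -0.15). *Epas1* (rn6 chr6:10306508-10385239, plus strand) had 140 and 254 (0.37, interval 0.06 to 0.68). The first was lower and the second higher on the TMM scale, and *Epas1* was the only gene at the floor with an interval above 0. With total-count scaling *Hif1a* was at 0.082 and *Epas1* at 0.79. The share of *Epas1* among the reads of both genes does not depend on scaling. It was 25.2% in the control (95% exact binomial interval 21.6 to 29) and 35.5% in the DA-DDH library (32 to 39.2), or 31.2% and 42.6% per kb of exon. These intervals did not overlap, which among the 9 families with shares compared here was so for the HIF-α pair alone. That pair also had the most reads of the 9 families, 556 and 715. The share of *Pdk2* in the *Pdk1* and *Pdk2* reads differed more, 23.8% and 41.2%, on 21 and 51 reads, with overlapping intervals. Gene pairs outside these families were not compared.

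*Epas1* is strongly expressed in endothelium, and endothelial markers were higher in the same library. The 11 markers listed had 449 control reads and 1329 DA-DDH reads, which is 653 and 1375 CPM, and none was at 0 in either library. Of the 9 at the floor, 3 passed it only through the DA-DDH library. The 6 with at least 30 reads in each library had log2 ratios from 0.82 to 1.14, with a median of 0.95, beside 0.37 for *Epas1*. The part of vessel RNA in the reads of *Epas1* was not tested, and in pooled tissue more cells of a type and more RNA per cell cannot be told apart. *Arnt*, which encodes the shared partner HIF-1β, had 59 and 56 reads (-0.57, interval -1.12 to -0.01). With total-count scaling its ratio was -0.14. *Egln3*, a prolyl hydroxylase gene that hypoxia induces, had 12 and 27 reads (0.65, interval -0.35 to 1.79), under the floor. *Egln2*, another hydroxylase gene, had 30 and 32 (-0.40, interval -1.16 to 0.37), and *Hif3a* had 1 and 0.

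**Figure D4:**
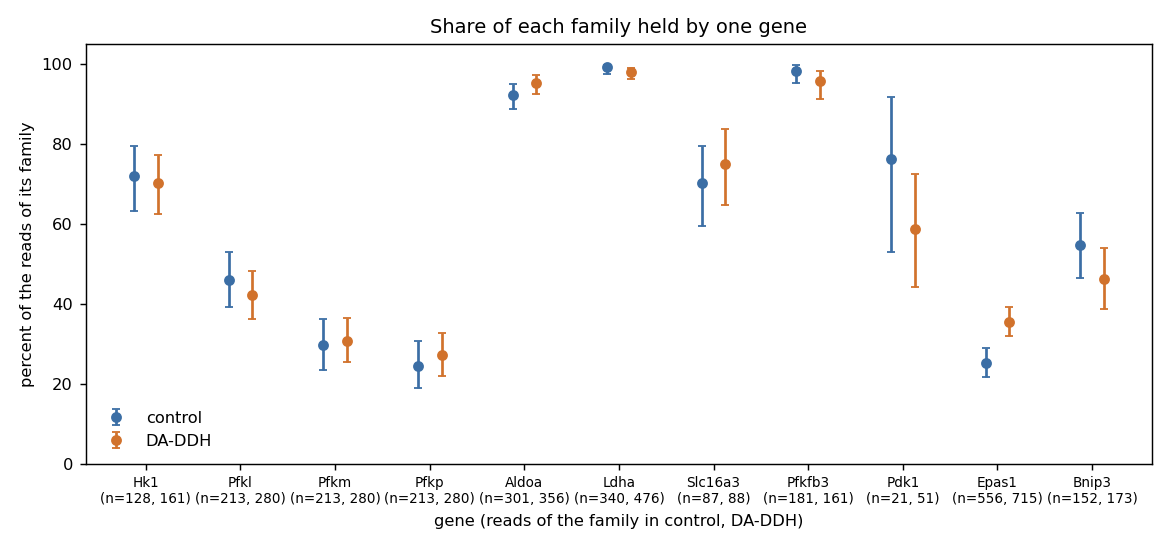
Percent of the reads of a family (y axis) that the named gene (x axis) held in the control and the DA-DDH library, with the reads of the family in each library as n. Bars are 95% exact binomial intervals. Only the bars of *Epas1*, 25.2% and 35.5% of the *Hif1a* and *Epas1* reads, do not overlap, and this family has the most reads.

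Of 4 genes at the floor grouped here as HIF targets, 3 were below 0 on the TMM scale, with a median log2 ratio of -0.12. Over all genes at the floor, 51.7% were below 0. The group leaves out inducible genes placed under other steps, such as *Hk2* and *Pfkfb3*. With total-count scaling 3 of the 4 were above 0, so the direction turned with the scaling. *Vegfa*, the growth factor for vessels, had 264 control reads and 331 DA-DDH reads (-0.17, interval -0.40 to 0.07). *Ndrg1*, a stress response gene, had 64 and 93 (0.04, interval -0.43 to 0.53). *Adm*, which encodes the vasodilator adrenomedullin, had 13 and 11 (-0.72, interval -2.03 to 0.54). None of these stood apart from 0. *Bnip3* and *Bnip3l* encode related receptors that mark mitochondria for removal. *Bnip3* had 83 and 80 reads (-0.54, interval -1.01 to -0.08), whereas *Bnip3l* had 69 and 93 (-0.06, interval -0.53 to 0.41). The share of *Bnip3* in their reads was 54.6% in the control (interval 46.3 to 62.7) and 46.2% in the DA-DDH library (38.6 to 54.0), which overlap, so the genes were not shown to differ from each other.

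*Ankrd37*, an ankyrin repeat gene known to be induced by HIF-1, was furthest from 0. The gene (rn6 chr16:49463016-49465905, plus strand) had 13 control reads and 3 DA-DDH reads. Its log2 ratio of -2.44 had an interval from -5.06 to -0.74, and even with total-count scaling it was at -2.01. It rests on 16 reads in all, so its size is poorly known.

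The core of the HIF binding site was looked for in windows of 300 bases around each gene's start, from RefSeq on build GRCr8. Windows were found for 31 of the 35 genes, 36 windows in all, and *Slc2a3*, *Pgk1*, *Bnip3l* and *Ndrg1* had none. The letters ACGTG, searched on both strands, were in 18 of the 36 windows (50%), beside 19.3% of all 33469 windows, and GCGTG was in 16 (44.4%), beside 29.7%. The letters CACGTG hold ACGTG on both strands, and such a stretch is then matched on each. A match is a description of the letters and not a site that is in use. The members were listed as glycolysis and hypoxia response genes, and the windows of all genes were not matched to theirs for base content. The 12 genes at the floor with ACGTG in a window had a median log2 ratio of -0.28 (-0.70 to -0.02), and the 8 with a window but without it had -0.12 (-0.57 to 0.37).

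The member furthest from 0 (*Ankrd37*) and the lowest member at the floor (*Pfkfb3*) were chosen for display. *Bnip3* was added as the lowest of the 4 genes at the floor grouped here as HIF targets. *Ldha* was added because it was near 0 although its window has most matches. The windows of these genes are shown here. Each is written 5′ to 3′ on the strand of the gene, with ACGTG and GCGTG, or their reverse complements CACGT and CACGC, in capitals.
Ankrd37 (chr16:53001257-53001556, plus strand): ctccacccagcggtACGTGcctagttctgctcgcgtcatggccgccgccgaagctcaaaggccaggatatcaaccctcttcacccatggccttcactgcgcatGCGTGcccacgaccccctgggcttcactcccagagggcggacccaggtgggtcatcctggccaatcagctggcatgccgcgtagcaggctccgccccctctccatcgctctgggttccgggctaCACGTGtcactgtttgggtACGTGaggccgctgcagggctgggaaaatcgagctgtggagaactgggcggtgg
Pfkfb3 (chr17:71944683-71944982, plus strand): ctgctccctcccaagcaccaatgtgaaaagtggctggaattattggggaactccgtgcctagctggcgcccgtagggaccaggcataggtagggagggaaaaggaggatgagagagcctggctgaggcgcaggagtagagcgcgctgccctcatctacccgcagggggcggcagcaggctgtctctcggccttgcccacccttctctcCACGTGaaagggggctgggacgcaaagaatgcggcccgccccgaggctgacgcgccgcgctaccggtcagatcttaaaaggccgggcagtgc
Bnip3 (chr1:203154913-203155212, minus strand): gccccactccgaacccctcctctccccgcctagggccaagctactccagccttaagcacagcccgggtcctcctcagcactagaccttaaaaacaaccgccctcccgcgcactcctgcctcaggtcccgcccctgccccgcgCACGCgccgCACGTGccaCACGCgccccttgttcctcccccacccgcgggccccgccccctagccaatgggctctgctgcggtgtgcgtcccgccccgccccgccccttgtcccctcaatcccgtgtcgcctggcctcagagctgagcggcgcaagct
Ldha (chr1:106507842-106508141, plus strand): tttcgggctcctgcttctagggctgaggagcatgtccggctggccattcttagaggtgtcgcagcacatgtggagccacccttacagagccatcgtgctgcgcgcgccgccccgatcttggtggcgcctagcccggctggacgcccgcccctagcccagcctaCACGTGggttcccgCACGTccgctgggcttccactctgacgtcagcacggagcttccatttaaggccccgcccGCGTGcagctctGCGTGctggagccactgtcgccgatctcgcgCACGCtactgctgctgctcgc
*Ankrd37* had 5 matches in its window, *Pfkfb3* 2, *Bnip3* 4 and *Ldha* 6, counting both strands of CACGTG. The window of *Epas1*, the highest member at the floor, held none.

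Other genes of glucose use, 50 listed of which 49 had a row, showed no common direction. Of 16 at the floor, 9 were above 0 and 7 below, with a median log2 ratio of 0.12. None was over 2-fold, beside 5.65% of all genes at the floor. For the 12 of them with at least 30 reads in each library the median was -0.10, with 5 above 0 and 7 below. Of the 16, the interval on the TMM scale lay below 0 for *Bsg* alone, beside 15.5% of all genes. It lay above 0 for none, beside 12.7%. Paralogs that prevail in other tissues had few or no reads, with 0 in both libraries for *Eno2*, whose exons are also annotated at 2 places, 1 and 1 for *Pklr*, 2 and 3 for *Slc2a4* and 7 and 2 for *Hk3*. The muscle forms of later steps had 6 and 18 reads (*Pgam2*, log2 ratio 1.02, interval -0.30 to 2.71) and 17 and 37 (*Eno3*, 0.61, interval -0.23 to 1.55). *Pygm*, the muscle glycogen phosphorylase gene, singled out after its values were seen, had 8 and 41 (1.80, interval 0.75 to 3.17). *Fbp2*, the muscle fructose-bisphosphatase gene of the same list, went the other way, with 15 and 9 (-1.20, interval -2.60 to 0.06). Skeletal muscle markers were higher in the same library, with 942 control reads and 2822 DA-DDH reads over 22 markers with a row, or 1371 and 2919 CPM. Of 10 muscle markers with at least 30 reads in each library, 9 were above 0. The other 1, *Tnni2*, was below 0, with 199 and 130 reads (-1.10, interval -1.44 to -0.78). The myogenic factor genes were at 0 reads in both (*Myog*) and at 0 and 1 (*Myod1*). The part of muscle RNA in the glycolysis genes was not tested, and *Pfkm*, the muscle form of phosphofructokinase, was at -0.05.

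Further hypoxia genes, 50 listed of which 46 had a row, were spread more widely. Of 28 at the floor, 12 were above 0 and 16 below, with a median log2 ratio of -0.16. The interval was above 0 for 6, beside 12.7% of all genes at the floor, and below 0 for 6, beside 15.5%. Over 2-fold were 3 of the 28, beside 5.65% of all genes. *Tfrc*, the transferrin receptor gene, had 136 and 75 reads (-1.35, interval -1.78 to -0.93). *Kdr*, the VEGF receptor gene of endothelium and a member of the endothelial list too, had 42 and 131 (1.14, interval 0.64 to 1.69), and *Cxcl12*, a chemokine gene of stromal cells, had 32 and 103 (1.18, interval 0.61 to 1.81). The genes over 2-fold thus fell on both sides. *Tfrc* is abundant in red cell precursors, and the erythroid list had 184 and 148 reads (268 and 153 CPM). In that list *Hbb* had 74 and 76 reads, while *Hba1* and *Hba2* were at 0 in both libraries, which is not taken as absence. The part of red cell precursors in *Tfrc* was not tested. Genes of collagen modification were chosen after their values were seen. *P4ha1*, a prolyl hydroxylase of collagen, had 723 and 666 reads (-0.61, interval -0.76 to -0.46). *Plod2*, a lysyl hydroxylase, had 758 and 794 (-0.43, interval -0.57 to -0.28). Library totals as the scale would raise both ratios by 0.43, which brings that of *Plod2* to about 0 and leaves that of *P4ha1* below it. Among other collagen modification genes of the list, *P4ha2* was at -0.34 (interval -0.58 to -0.11) and *Lox* at 0.27 (interval 0.03 to 0.52). *Plod1* was at -0.15 and *Loxl2* at -0.16, with intervals that spanned 0, so these genes had no common direction. *Car9*, a carbonic anhydrase gene widely used as a marker of hypoxia and also chosen after its values were seen, had 28 and 51 (0.36, interval -0.32 to 1.09). Of the other cell types with lists, macrophage markers summed to 252 CPM in control and 639 in DA-DDH, adipocyte markers to 151 and 273, osteoblast markers to 1061 and 861 and fibroblast markers to 23010 and 34651. Of these 4 sums, that of the osteoblast markers alone was lower in DA-DDH on the TMM scale (log2 ratio -0.30 from 729 and 832 reads). Library totals as the scale would raise that ratio by 0.43, to above 0. *Lyz2* (76 and 288 reads, 1.42) was the only macrophage marker with at least 30 reads in each library. *Fabp4* (44 and 83, 0.42, interval -0.12 to 0.99) was the only such adipocyte marker. *Col3a1* alone held 14384 of the 15815 control reads and 31102 of the 33494 DA-DDH reads of the fibroblast list. Of the 7 fibroblast markers at the floor, 6 were above 0 and 1, *Fap*, was below (-0.73, interval -0.94 to -0.53). The part of these cell types in the results was not tested.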

How the data were processed

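Reads of 2 pooled RNA-seq libraries of acetabular cartilage (1 control, 1 DA-DDH) were processed by the authors on rn6 with, per the submitters' processing notes, TopHat and Cufflinks. The sources used here do not say how reads were counted. The labels name a SMARTer total RNA kit and the methods a TruSeq mRNA kit. The authors deposited a normalized signal per gene, in which 1 control read is worth 1.20 and 1 DA-DDH read 0.855. All values (100%) were whole multiples of it within a relative tolerance of 1e-06, so reads were recovered by division. The deposited table also holds other columns per gene, the exon length in bases, which was used, and the authors' own fold changes, p-values and ranks, which were not.

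Reads were scaled by TMM in edgeR 4.0.16 (R 4.3.3), and ratios have a prior of 0.5 reads. With 1 library per group no test was run. Genes counted had a mean of at least 30 reads over the libraries. Of 3735 such genes, 616 had under 30 in one library and so passed through the other, among them none of the 23 members. The 95% intervals are conditional binomial for ratios, binomial for shares and Poisson for levels, all exact. A 0 allows up to 3 reads by counting error, or 4.36 CPM (control) and 3.10 CPM (DA-DDH). Members and lists were chosen with earlier results of these data known. All members are named, with isoform partners and up to 4 genes per other list over 2-fold at the floor, except that some isoform partners are not reported here. Marker lists of other cells are given as sums. Calculations were tested on simulated data. The simulation was not set to hold the shift in hyaline cartilage reads seen here, so it does not bear on the choice of scaling. Alternatives were other scalings (library totals, upper quartile, and the DESeq2 1.42.0 median of ratios), values as deposited, priors, floors, a 1.5-fold threshold, ratios to Gapdh and shares per kb. Sums, intervals and plots were made in Python 3.11.15 (pandas 2.3.3, matplotlib 3.10.9, scipy 1.17.1, numpy 2.4.6).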

Additional observations from a re-analysis of the deposited data

How the results depend on the processing

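Results on the TMM scale were 0 genes over 2-fold higher, 0 lower, a median log2 ratio of -0.18, and intervals above 0 for 1 gene and below 0 for 7. Scaling by library totals alone gave a median of 0.24, intervals above 0 for 5 genes and below 0 for 0. It moved 16 of the 20 genes below 0 to above 0. Among them were *Pgam1* (0.056), *Eno1* (0.048) and *Hif1a* (0.082), whose intervals lay below 0 on the TMM scale. The summed aldolase reads (0.18) and summed enzymes (0.26, and 0.25 without *Gapdh*), with intervals below 0 before, also turned, as did the sums of hexokinase, phosphofructokinase, lactate dehydrogenase, the HIF-α pair and the mitophagy receptors. A floor of 30 reads in each library for the other lists was added after seeing the data. Total counts without the hyaline cartilage markers, chosen after seeing the data, move ratios up by 0.04 and left 4 intervals below 0. Upper-quartile and median-of-ratios scaling and the values as deposited moved ratios by under 0.01. A floor of 100 reads kept 14 genes, 4 with an interval below 0. A floor of 10 kept 29, with 1 over 2-fold higher and 2 intervals above 0, and no floor 32, with 2 higher, 1 lower and 2 intervals above 0. At 1.5-fold, 1 gene was lower. Each gene's depth limits its ratio, from *Gapdh* with 586 and 755 reads to *Ldhb* with 3 and 10. No paired analysis was possible because each group is 1 library.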
